A study of Schizosaccharomyces pombe with 30 samples.

Results

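Fission yeast, Schizosaccharomyces pombe, that carried the swr1 deletion together with prp16DAmP was set against yeast with the swr1 deletion alone, both after 2 hours at 37 °C. The comparison takes the 3 arrays labelled swr1∆ prp16DAmP 37 °C minus the 3 arrays labelled swr1∆ 37 °C. These are 6 of 30 arrays in all, which fall into 10 groups of 3. The other group at 37 °C, prp16DAmP alone (3 arrays), entered the fit and served to ask whether prp16DAmP went with the same differences outside the swr1∆ background. All 3 groups grew in rich YES5 medium at 30 °C before the shift, and RNA of each mutant (Cy5) was hybridised beside wild-type RNA (Cy3) of the same temperature regime on every array. No array swapped the dyes, so a constant dye bias or wild-type offset drops out of the difference between the mutants. Values are log ratios of mutant over wild type, read here as log2, although no source used here names the base. The labels do not say whether the replicates are separate cultures, so the p-values measure the spread between arrays only.

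Swr1 is the ATPase of the remodelling complex that exchanges H2A for the variant H2A.Z (Pht1 in this yeast) in nucleosomes. Prp16 is a helicase-like ATPase of the DEAH family that remodels the spliceosome after the first step of splicing, before the exons are joined. A DAmP allele carries a disruption behind the stop codon that is meant to destabilise the mRNA of an essential gene. The array holds an exon feature for most genes, an intron feature for each intron and a junction feature for the joined exons. The splicing index is the intron feature minus the exon feature of the same gene, and junction minus exon is its counterpart for the spliced product. An unspliced intron gives a higher index, and so does an exon feature that drops while its intron feature stays.

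The arrays did not bear out the labels at the targeted genes, so the groups are named by their labels alone. The prp16 exon feature was 0.23, 0.19 and −0.45 on the swr1∆ prp16DAmP arrays, −0.26, −0.31 and −0.80 on the swr1∆ arrays, and −0.16, −0.26 and −0.16 on the prp16DAmP arrays. The first 2 double-mutant arrays thus lay above every swr1∆ array, and the difference of 0.44 ± 0.19 (SE) did not pass (adjusted p = 0.123, limma, a linear model across all features of a kind). The swr1 feature was −0.16, −0.15 and −0.02 on the double-mutant arrays and −0.20, −0.16 and −0.21 on the swr1∆ arrays (difference 0.08 ± 0.07, adjusted p = 0.365). The position of the probe relative to the deleted part of swr1 is not given, so that feature may check nothing.

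One array of each group stood apart. Over all 14556 features, the double-mutant arrays 1 and 2 correlated at r = 0.757, but array 3 correlated with them at only 0.058 and 0.087, and with the prp16DAmP arrays at 0.469 to 0.520. Among the swr1∆ arrays, arrays 2 and 3 correlated at 0.634, and array 1 correlated with them at 0.420 and 0.265. Double-mutant arrays 1 and 2 correlated negatively with swr1∆ arrays 2 and 3 (r from −0.528 to −0.347). Features are not independent replicates, and every array shares the wild-type channel. The dyes in the labels are the same on all arrays, and the direction is kept as labelled, although the labels do not settle whether a direction or a label was crossed on some of these arrays. With the sign of double-mutant arrays 1 and 2 turned, 0 of the 108 named calls stayed called in the same direction, and 13 of the 108 differences had the opposite sign. The 108 were chosen by their calls under the labelled sign, so this loss cannot decide whether a direction or label was crossed.

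The counts of calls changed with the arrays that were kept, so they are given with each array left out. Without double-mutant array 3, all 20 transcripts and 20 introns with the largest called differences, and all 10 such values of each junction measure, were called in the same direction. That omission also raised the number of called transcripts most, to 1979. In every single omission, 0 of these 20 transcripts and 5 of the 20 introns stayed called. So did 3 of the 10 junction features and 4 of the 10 values of junction minus exon. A feature is called where its limma adjusted p (Benjamini-Hochberg over all features of its kind) lies under 0.05. Of 5069 transcripts 624 were called (12.3%), 188 higher (3.71%) and 436 lower (8.6%) in the double mutant. With the 6 compared arrays alone in the fit, 0 transcripts were called (1418 at an unadjusted p under 0.05, limma), beside 39 introns by the splicing index, 11 junction features and 30 values of junction minus exon. In the fit of 9 arrays, leaving out double-mutant array 1, 2 or 3 gave 72, 1 or 1979 called transcripts, leaving out swr1∆ array 1, 2 or 3 gave 1158, 4 or 85, and leaving out prp16DAmP array 1, 2 or 3 gave 190, 214 or 326. Of these, 53, 1 or 1215 were lower without double-mutant array 1, 2 or 3, and 709, 3 or 69 without swr1∆ array 1, 2 or 3. Without prp16DAmP array 1, 2 or 3, 151, 162 or 228 were lower. The splicing index was called for 479 of 4821 introns (9.94%) in 381 genes, 291 higher (6.04%) and 188 lower (3.9%). Without double-mutant array 1, 2 or 3 the called introns numbered 27, 30 or 1608, without swr1∆ array 1, 2 or 3 they numbered 699, 19 or 27, and without prp16DAmP array 1, 2 or 3 they numbered 186, 214 or 309. Features that were called in all 9 of these omissions came to 1 transcript, 16 introns by the index, 12 junction features and 17 values of junction minus exon.

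**Figure D1:**
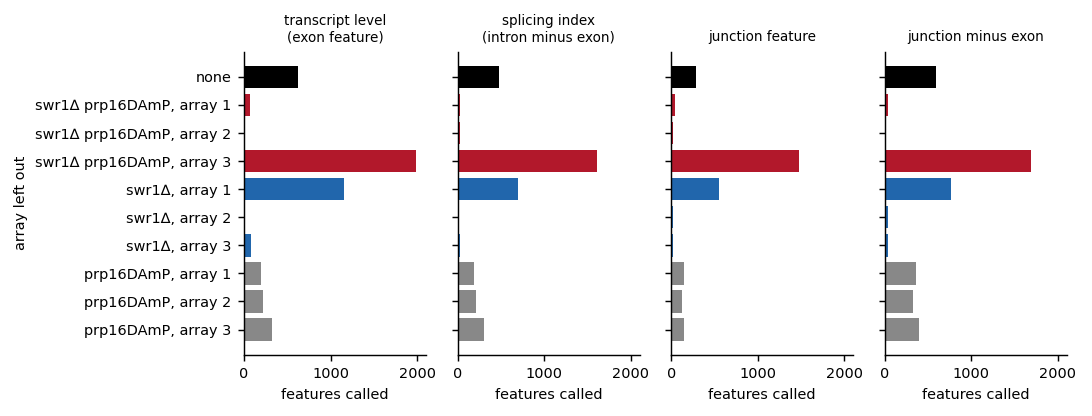
Number of features called (limma adjusted p under 0.05) with all 9 arrays (black) and with each array left out in turn, from the swr1∆ prp16DAmP arrays (red) to the swr1∆ arrays (blue) and the prp16DAmP arrays (grey), for 4 measures. Leaving out swr1∆ prp16DAmP array 3 raised the transcript count to 1979, and leaving out swr1∆ prp16DAmP array 2 lowered it to 1.

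The introns printed here were chosen after their values were seen, because their calls did not depend on any single array. They are all 4 introns of mms19, the only intron of cdc48, intron 4 of SPBP19A11.07c, whose own intron feature rose most among the 16, and intron 2 of SPCC1322.09, which was lower in the double mutant. Sequences are from RefSeq (assembly ASM294v3), on chromosome I for mms19 and cdc48, II for SPBP19A11.07c and III for SPCC1322.09, each written on the gene's strand. An intron is matched to its feature by gene ID and intron order, since the build behind the array is not given. Capitals mark the first 6 bases (the 5′ splice site), the best match in the last 60 bases to the branch motif CTNAN (the first N being A or G, the last C or T), and the closing 2 bases.
mms19 intron 1: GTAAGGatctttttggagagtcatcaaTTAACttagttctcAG
mms19 intron 2: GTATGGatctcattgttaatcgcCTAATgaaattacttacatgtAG
mms19 intron 3: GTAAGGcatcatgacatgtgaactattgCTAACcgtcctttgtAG
mms19 intron 4: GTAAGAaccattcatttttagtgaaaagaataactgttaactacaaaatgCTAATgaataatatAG
cdc48 intron 1: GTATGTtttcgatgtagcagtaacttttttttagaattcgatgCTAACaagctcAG
SPBP19A11.07c intron 4: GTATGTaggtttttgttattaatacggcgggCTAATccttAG
SPCC1322.09 intron 2: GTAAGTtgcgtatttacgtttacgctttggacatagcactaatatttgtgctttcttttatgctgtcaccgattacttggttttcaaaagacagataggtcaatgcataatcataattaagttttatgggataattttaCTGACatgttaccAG
The 4 mms19 introns are 43, 46, 45 and 66 bases long, against a median of 56 over the 4316 introns placed in this way. None of them opens with GTAAGT (28.2% of placed introns) or GTATGT (20.4%), and intron 1 matches the branch motif at 4 of 5 bases, where 76.6% of placed introns match at all 5. These matches describe the letters and are not mapped sites.

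The largest called fall among transcripts was that of gst2, a glutathione S-transferase gene. Its exon feature was −0.98, −1.65 and −0.20 on the swr1∆ prp16DAmP arrays and 1.92, 2.02 and 0.36 on the swr1∆ arrays. It fell by 2.38 ± 0.44 on the log2 scale (5.20-fold, adjusted p = 0.0189), and the groups did not overlap, although array 3 of each group lay nearest the other. Without double-mutant array 3 the gst2 difference was −2.75. Thioredoxin trx1 was −0.64, −1.11 and −0.46 in the double mutant and 0.24, 1.34 and 1.30 in swr1∆, a fall by 1.70 ± 0.27 (adjusted p = 0.0152). The trx1 groups did not overlap, and swr1∆ array 1 lay below the other two. The neutral trehalase ntp1 fell by 1.15 ± 0.22 (adjusted p = 0.0199), with double-mutant arrays 1 and 2 at −0.67 and −0.65 and array 3 at 0.29, below the lowest swr1∆ array at 0.65. Of the 25 members of the list for oxidative and general stress, however, only gst2 and ntp1 were lower, and tps1 (trehalose-phosphate synthase, 0.29) and rds1 (0.29) were higher, where 8.6% of all transcripts were called lower and 3.71% higher. The share of lower genes in that list, 8.0%, was near the background, but trx1 is not a member and is not counted in it. The list's median difference was −0.09, against −0.02 over all transcripts.

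Other large falls were those of uncharacterised or membrane traffic genes. SPAC750.01 and SPAPB24D3.07c fell by 2.36 ± 0.31 and 2.33 ± 0.25 (5.12-fold and 5.01-fold, adjusted p = 0.0151 and 0.00789), SPAC750.01 being one of 9 lower transcripts (9.47%) among 95 subtelomeric genes, of which 3 (3.16%) were higher. Those shares are near the background of 8.6% lower and 3.71% higher. Among the 95, 0 were lower without double-mutant array 2 or without swr1∆ array 2, and 17 were lower and 21 higher without double-mutant array 3. Over all 5069 transcripts, those omissions gave 1 lower, 3 lower, and 1215 lower with 764 higher. SPAPB24D3.07c was −1.81, −1.57 and −0.78 in the double mutant and 1.27, 0.97 and 0.59 in swr1∆, so that it was well below 0 on all 3 double-mutant arrays and above it on all 3 swr1∆ arrays. The GTPase of vesicle budding arf1 was −0.84, −0.96 and −0.03 in the double mutant and 0.12, 1.07 and 1.47 in swr1∆, a fall by 1.50 ± 0.32 (adjusted p = 0.0264). That is its exon feature, and arf1 junction 1-2 minus exon was higher by 1.45. SPAPB18E9.05c fell by 1.36 ± 0.28 (adjusted p = 0.0227), and double-mutant array 3, at 0.13, was the only one above 0. Without that array all 10 of the largest falls passed as well, but each lost its call in 1 to 5 of the 9 single omissions, and without double-mutant array 2 only 1 transcript of any kind was called. The 1 transcript called in every omission was mug35, a gene named for its induction in meiosis, which was −0.12, −0.27 and −0.08 in the double mutant and 0.66, 0.60 and 0.57 in swr1∆ (−0.77 ± 0.07, adjusted p = 0.00299). Its 3 arrays lay close together within each group, and the prp16DAmP arrays (−0.21, −0.12 and −0.10) lay with the double mutant.

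Ubiquitin transcripts were lower together. The polyubiquitin gene ubi4 was −0.47, −0.61 and 0.21 in the double mutant and 1.16, 1.76 and 1.22 in swr1∆, a fall by 1.67 ± 0.21 (3.19-fold, adjusted p = 0.0151). The ubiquitin fusion gene ubi2 was −0.39, −0.52 and 0.06 in the double mutant and 0.94, 1.68 and 1.11 in swr1∆ (−1.52 ± 0.19, adjusted p = 0.0151). Every swr1∆ array was above every double-mutant array for both genes, and double-mutant array 3 was the highest of its group. In the list of 5 ubiquitin genes 4 were lower (ubi2, ubi3, ubi4 and ubi5) and 0 higher (background 8.6% lower), and the list's median difference was −0.72. That count was 4 without double-mutant array 3, but 0 without double-mutant array 2 and 1 without swr1∆ array 2, while the list's median lay between −0.83 and −0.63 in those and the other single omissions. Lower transcripts of any kind numbered 1215, 1 and 3 in those omissions. Genes of the proteasome, which degrades ubiquitin-marked proteins, formed a list added after the data were seen. Of its 32 members 8 were lower (25.0%, background 8.6%), led by the core subunit pre8 (−0.85 ± 0.16), the lid subunit rpn11 (−0.70 ± 0.16) and the core subunit pre1 (−0.61 ± 0.10), and 1 was higher, the core subunit pup1 (0.30 ± 0.06). These are exon features, and junction 2-3 of pre8 minus its exon feature was higher by 1.24. Without double-mutant array 3, 14 of the 32 were lower, beside 1215 of all 5069 transcripts. Without double-mutant array 2, 0 of the 32 were lower, beside 1 of all transcripts.

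Chaperones, which fold and disaggregate proteins and are made in larger amounts in heat, fell in the double mutant in 10 of 20 listed genes (background 8.6%) and rose in 0 (background 3.71%), with a median difference of −0.33, against −0.02 over all transcripts. The disaggregase hsp104 was −0.50, −0.57 and 0.22 in the double mutant and 0.75, 0.79 and 0.65 in swr1∆, a fall by 1.02 ± 0.18 (adjusted p = 0.0152). The Hsp90 co-chaperone wos2 was −0.77, −0.76 and 0.08 in the double mutant and 0.64, 0.73 and 0.66 in swr1∆ (−1.16 ± 0.19, adjusted p = 0.0152). In both genes the swr1∆ arrays lay close together and above all double-mutant arrays, of which array 3 lay near the prp16DAmP mean (0.19 for hsp104 and 0.12 for wos2). The Hsp70-Hsp90 adaptor sti1 fell by 0.99 ± 0.17, the cyclophilin co-chaperone wis2 by 1.63 ± 0.22, the endoplasmic Hsp70 bip1 by 0.74 ± 0.18 and the cytosolic Hsp70 ssa1 by 0.48 ± 0.13. The transcription factor of the heat shock response, hsf1, fell by 0.31 ± 0.08 (adjusted p = 0.0389). The count of lower genes was 13 without double-mutant array 3, 1 without array 1 and 0 without array 2. It was 12, 0 and 5 without swr1∆ array 1, 2 and 3, and 4, 4 and 7 without prp16DAmP array 1, 2 and 3. Of all 5069 transcripts, 53, 1 and 1215 were lower without double-mutant array 1, 2 and 3. Without swr1∆ array 1, 2 and 3, 709, 3 and 69 were lower, and without prp16DAmP array 1, 2 and 3, 151, 162 and 228. The median of the list lay between −0.37 and −0.30 in every single omission.

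Transcripts of the mitochondrial genome were lower as a group. All 11 had negative differences, from −1.46 to −0.33 with a median of −0.84, and 7 passed, where 8.6% of all transcripts were called lower. SPMIT.11 was −1.01, −1.17 and −1.08 on the double-mutant arrays and −0.06, 0.05 and 1.12 on the swr1∆ arrays (−1.46 ± 0.25, adjusted p = 0.0152). The 3 double-mutant arrays were alike, array 3 included, while the swr1∆ arrays spread over more than a unit. SPMIT.01 was −0.75, −0.78 and −0.51 in the double mutant and 0.04, 0.29 and 0.79 in swr1∆ (−1.05 ± 0.16, adjusted p = 0.0151), and both of its junctions fell too, by 0.99 ± 0.15 and 0.84 ± 0.12 (adjusted p = 0.0101 and 0.00725). These 2 junction calls were kept in all 9 omissions. The prp16DAmP arrays had list medians of −0.49, −0.42 and −0.51, beside −0.75, −0.59 and −0.92 in the double mutant and −0.40, 0.05 and 0.71 in swr1∆. The labelled RNA is total RNA, and fewer mitochondrial genomes and less RNA per genome cannot be told apart. The count of 7 was 11 without swr1∆ array 1, 5 without array 3 and 0 without array 2. It was 2, 0 and 7 without double-mutant array 1, 2 and 3, and 4 without any 1 of the prp16DAmP arrays. Lower transcripts of any kind numbered 709, 3 and 69 without swr1∆ array 1, 2 and 3. They numbered 53, 1 and 1215 without double-mutant array 1, 2 and 3, and 151, 162 and 228 without prp16DAmP array 1, 2 and 3.

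**Figure D2:**
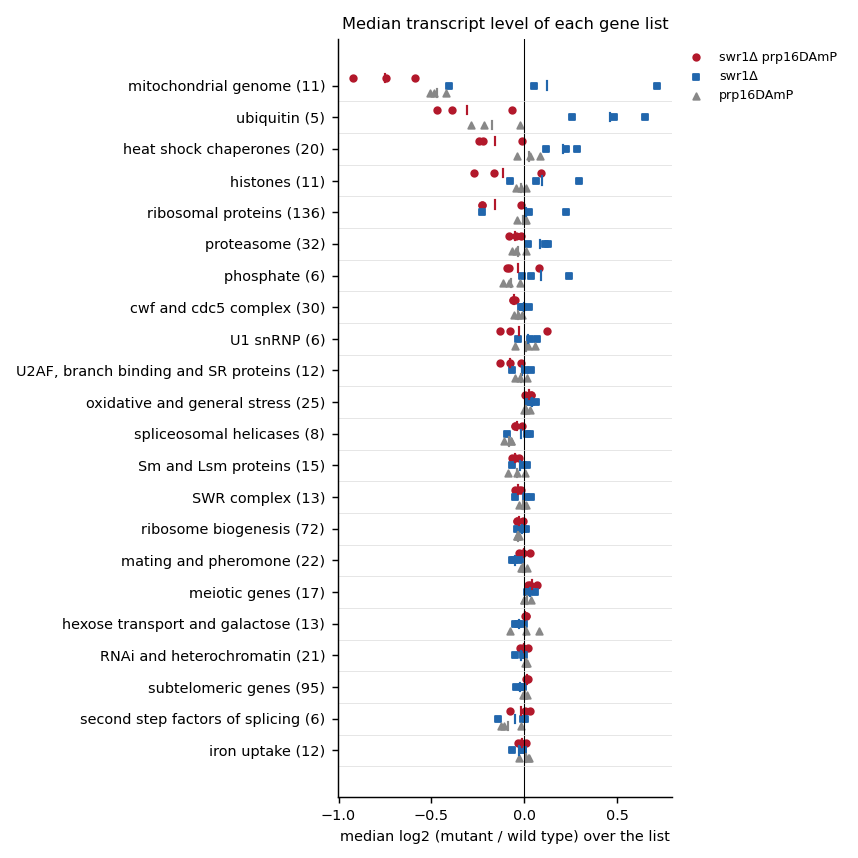
Median log2 ratio of mutant over wild type over the members of each gene list (number of members in parentheses), one point per array, for swr1∆ prp16DAmP (red), swr1∆ (blue) and prp16DAmP (grey), with vertical ticks at group means. Mitochondrial, ubiquitin and chaperone lists had every swr1∆ prp16DAmP array below every swr1∆ array, with list medians of the difference at −0.84, −0.72 and −0.33.

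The transcripts that were higher in the double mutant changed less. duc2 was 0.37, 0.74 and 0.25 in the double mutant and −0.30, −0.48 and −0.94 in swr1∆, a rise by 1.03 ± 0.18 (2.04-fold, adjusted p = 0.0152). The KEOPS subunit cgi121, which acts in tRNA modification, rose by 0.77 ± 0.11, and the meiotic RNA-binding protein gene spo5 by 0.74 ± 0.16. The acetoacetyl-CoA thiolase erg10 was 0.21, 0.43 and 0.14 in the double mutant and −0.53, −0.45 and −0.38 in swr1∆ (0.72 ± 0.11, adjusted p = 0.0151). All of these 4 were positive on all 3 double-mutant arrays and negative on all 3 swr1∆ arrays. The Rab GTPase activator gyp10 (0.66), the Smc5-Smc6 complex gene smc6 (0.65), the Mediator subunit med9 (0.60), the nuclear poly(A)-binding protein gene pab2 (0.57), the transcription factor adn2 (0.56) and SPBPB21E7.02c (0.54) completed the 10 largest rises. Of the 10, SPBPB21E7.02c alone had a smaller difference without double-mutant array 3, 0.41. On double-mutant array 3, med9, pab2 and adn2 lay below 0 (−0.14, −0.31 and −0.03). Their calls were lost in 4, 7 and 6 of the 9 omissions, and those of the other 7 in 2 to 5, though not in the omission of that array.

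**Figure D3:**
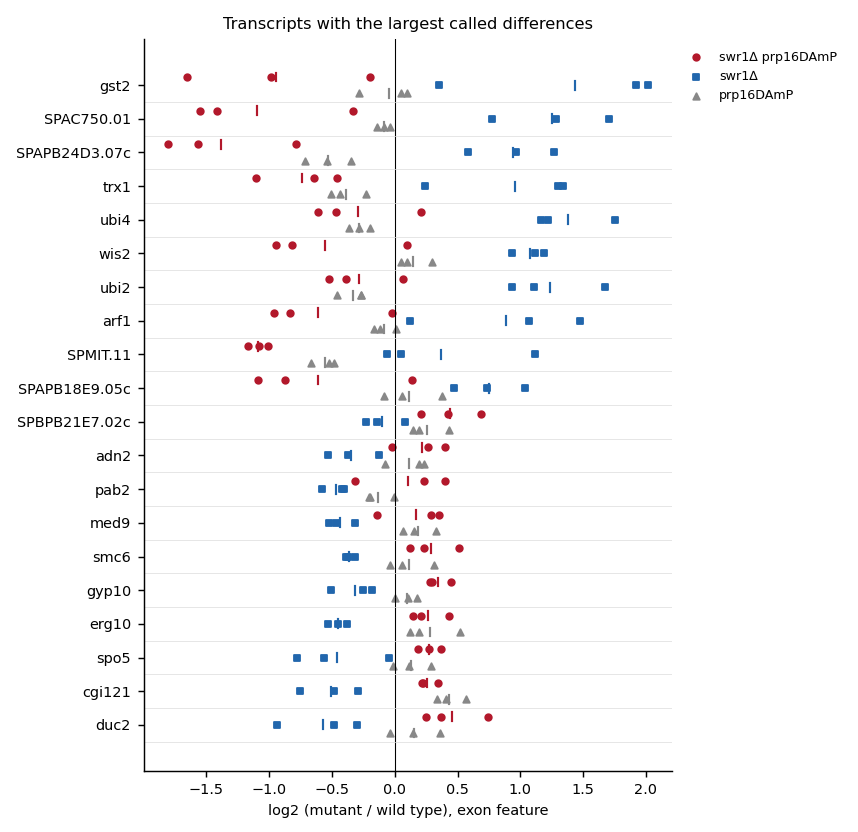
Log2 ratio of mutant over wild type of the exon feature for the 10 largest called falls (top) and the 10 largest called rises (bottom), one point per array, for swr1∆ prp16DAmP (red), swr1∆ (blue) and prp16DAmP (grey), with vertical ticks at group means. gst2 has the largest difference (−2.38), and no gene shown has overlapping red and blue points.

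Lists of splicing and chromatin genes are small, and their counts are read against 8.6% of all transcripts called lower and 3.71% higher. Among 6 factors of the second step of splicing, prp16 included, none was called in either direction (median difference 0.04, from −0.19 to 0.44). Of 6 U1 snRNP genes, usp108 was higher (0.47 ± 0.09, adjusted p = 0.0196) and usp101, the U1-70K protein, lower (−0.43 ± 0.11, adjusted p = 0.0359). Among 30 genes of the Cdc5 and Cwf complexes of the active spliceosome 2 were higher (6.67%) and 5 lower (16.7%), and the spliceosomal helicase gene cwf11 (0.44 ± 0.13, adjusted p = 0.0478) was one of the 2. Between 0 and 5 of the 30 were higher and between 0 and 9 lower when single arrays were left out. Of all 5069 transcripts, between 0 and 764 were then higher and between 1 and 1215 lower. Of 13 genes of the Swr1 complex and its histone, yaf9 and msc1 (15.4%) were lower (−0.31 ± 0.08 and −0.41 ± 0.12), and the difference of pht1, −0.05 ± 0.08, did not pass. The count of lower genes was 1 without swr1∆ array 1 (709 of all transcripts) and 3 without double-mutant array 3 (1215 of all transcripts). It was 0 in the other 7 single omissions, in which between 1 and 228 of all transcripts were lower. The calls of usp101, cwf11 and yaf9 were each lost in 7 of the 9 omissions, that of msc1 in 8 and those of usp108 and hhf1 in 4. Of 11 histone genes only the histone H4 gene hhf1 was lower, with −0.54, −0.82 and −0.03 in the double mutant and 0.21, 0.92 and 0.95 in swr1∆ (−1.15 ± 0.23, adjusted p = 0.0208). Its prp16DAmP arrays lay at −0.62, −0.32 and −0.56, near double-mutant arrays 1 and 2. Ribosomal protein genes, which make up a large share of yeast mRNA, had 4 lower and 1 higher of 136, with a median of −0.15. That count is below the background of 8.6% called lower, and the list's swr1∆ medians differed widely between arrays (−0.23, 0.03 and 0.22). Without swr1∆ array 1, 52 of the 136 were called lower and 3 higher, beside 709 and 449 of all 5069 transcripts. Without double-mutant array 3, 37 of the 136 were lower and 4 higher, beside 1215 and 764 of all transcripts.

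The splicing index was tested to ask whether prp16DAmP goes with a shift of splicing in the swr1∆ background. The median index over 4821 introns was 0.05, 0.08 and 0.03 on the double-mutant arrays and 0.05, 0.02 and 0.02 on the swr1∆ arrays (difference 0.02, exact two-sided permutation p = 0.2). The smallest p that 6 such arrays allow is 0.1, and the test therefore leaves unsaid whether the medians are alike. Over the 1821 introns of genes whose exon feature differed by less than 0.1, the difference of the medians was −0.0024 (exact permutation p = 0.9). Called introns were spread over gene positions, with 5.39% of introns of single-intron genes, 6.09% of first introns and 6.28% of later introns higher, against 6.04% of all introns. Introns of 35 to 49 bases (the lowest of 3 equal length classes) were called higher in 5.83% of cases and those of 72 to 817 bases (the highest class) in 7.81%, with a per-array difference of medians of −0.03 between short and long introns (exact permutation p = 0.3). Each 5′ splice site was scored by how common each of its 6 bases is at its place among all introns. The lowest of 3 score classes (weak) had 5.96% called higher and the highest (strong) 6.58%, and the per-array difference in medians, weak minus strong, was −0.04, −0.02 and −0.01 in the double mutant and −0.01, 0.01 and 0.01 in swr1∆ (difference −0.03, exact permutation p = 0.2).

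Most introns with a higher index had a lower exon feature, which the index subtracts. Of the 291 introns called higher, 272 sat in genes whose exon feature differed by less than −0.1 (1686 of all 4821 introns did), 19 in genes whose exon feature was flat (a difference of at most 0.1 in size) and 0 in genes with a higher one. The median exon feature difference was −0.40 and the median intron feature difference 0.20. The intron part was the larger one in 32.0% of these introns, beside 48.5% of all introns. Junction minus exon was positive for 90.5% of the 274 with a junction and was called higher in 117 and lower in 0, beside 53.0% positive of all 4610 introns with a junction. Both measures subtract the same exon feature, so the choice of high indices favours a positive sign and nothing is read from it. The pattern of index up, intron feature up and junction minus exon down occurred in 25 of the called introns, and junction minus exon was called lower in 0 of them. Of the 188 introns called lower, 158 had an exon feature above 0.1 (1314 of all 4821 introns did). The intron part was the larger one in 56.9% of the 188, beside 48.5% of all introns. Since the index subtracts the exon feature, choosing introns by their index in itself favours these exon directions. Without double-mutant array 3 the exon feature was below −0.1 in 775 of 931 higher introns, and the intron part was larger in 41.1%. Fewer introns were called by the intron feature alone, 137 of 4836 (2.83%), 47 higher (0.972%) and 90 lower (1.86%), and none of these was called in all 9 omissions.

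**Figure D4:**
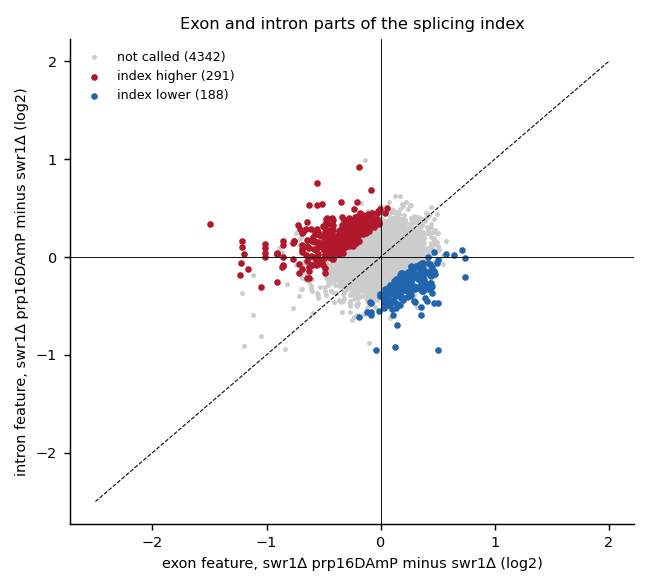
Difference of the intron feature (vertical) against that of the exon feature (horizontal) between swr1∆ prp16DAmP and swr1∆, in log2, for 4821 introns, with higher called indices in red (291), lower ones in blue (188) and the others in grey. Points above the dashed line have a higher index, and 272 of the 291 red points lie left of −0.1 on the exon axis.

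mms19, a gene of cytosolic iron-sulphur protein assembly, had all 4 of its introns called higher. Intron 1 was 0.64, 0.80 and 0.56 in the double mutant and −0.20, −0.43 and −0.81 in swr1∆, an index higher by 1.15 ± 0.15 (2.21-fold, adjusted p = 0.00731). Introns 4, 3 and 2 were higher by 1.11 ± 0.17, 1.06 ± 0.18 and 1.02 ± 0.17, so the 4 introns shared the difference of the single exon feature against which they are read. That exon feature was −0.56, −0.73 and −0.70 in the double mutant and 0.15, 0.13 and 0.76 in swr1∆ (−1.01 ± 0.15, adjusted p = 0.0151), while the intron features differed by 0.00 to 0.13 and the 4 junctions by −0.14 to 0.24, none called. All 3 double-mutant arrays were positive for the index of every mms19 intron, and all 3 swr1∆ arrays negative. cdc48, the ATPase that extracts ubiquitin-marked proteins, had the same composition: its index was 0.44, 0.30 and −0.07 in the double mutant and −0.57, −0.85 and −1.04 in swr1∆ (1.05 ± 0.15, adjusted p = 0.00731), its exon part was −1.23 ± 0.20 and its intron part −0.19. Intron 1 of wos2 repeated this, with an index higher by 1.04 ± 0.16 and an intron feature at −0.12. With the junction features as reference in place of the exon feature, the index of mms19 intron 3 turned to −0.01, and with the intron feature alone cdc48 was −0.19.

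In SPBP19A11.07c, dpc13 and ysh1 the intron feature itself was called higher. So were those of mta1 intron 1 (0.36), trm5 intron 3 (0.36), nrl1 intron 2 (0.39) and wtf19 intron 5 (0.39). These last are among the 16 introns whose index was called in all omissions. Their exon features were lower by 0.48, 0.65, 0.48 and 0.42. No call of an intron feature alone was kept in all 9 omissions. Without double-mutant array 2, or without swr1∆ array 2, 0 intron features of any gene were called. Intron 4 of SPBP19A11.07c was 0.65, 0.81 and 0.48 in the double mutant and −0.19, −0.27 and −0.35 in swr1∆ (0.92 ± 0.11, adjusted p = 0.00731) and was made of an intron feature higher by 0.57 and an exon feature lower by 0.35. Each group was compact and all double-mutant arrays were above all swr1∆ arrays. The gene has 8 introns, of which intron 7 had a lower intron feature (−0.46, called), so that its introns did not move as one. dpc13 had the largest higher index, 1.31 ± 0.22 (adjusted p = 0.0118), with 0.47, 1.15 and 0.33 in the double mutant and −0.46, −0.45 and −1.09 in swr1∆. It had an intron feature at 0.76 (adjusted p = 0.0495) and an exon feature at −0.55. In ntu1, intron 1 was 0.31, 0.33 and 1.52 in the double mutant and 0.02, −0.32 and −0.87 in swr1∆ (1.11 ± 0.30, adjusted p = 0.0409), and here double-mutant array 3 made the difference, which was 0.71 without it. The cleavage factor gene ysh1 (intron 2, 1.08 ± 0.19), the translation initiation factor gene sui1 (intron 1, 1.05 ± 0.19), the DNA polymerase delta subunit gene cdc27 (intron 1, 1.15 ± 0.28) and ppx1 (intron 1, 1.16 ± 0.22) completed the 10 highest. The intron features of ntu1 (0.92, adjusted p = 0.0647), sui1 (0.54, adjusted p = 0.0611) and cdc27 (0.53, adjusted p = 0.102) did not pass. That of ppx1 was −0.06, beside an exon feature at −1.22. On double-mutant array 3, cdc27 (−0.48) and ppx1 (−0.31) lay well below their values on array 1 (0.71 and 0.49) and array 2 (0.82 and 0.77).

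**Figure D5:**
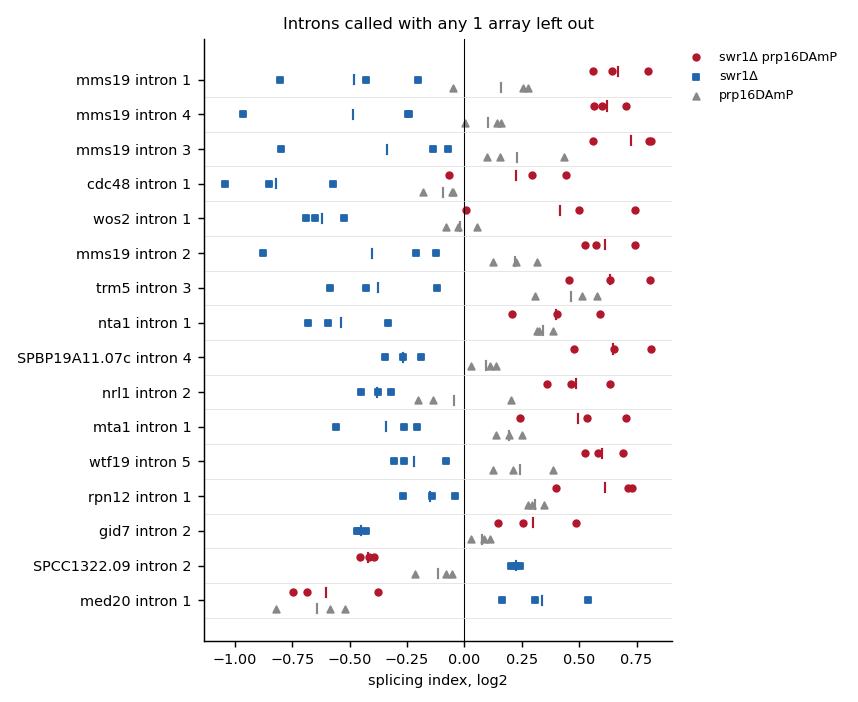
Splicing index (log2, intron minus exon) of the 16 introns called with all 9 arrays and with any 1 array left out, one point per array, for swr1∆ prp16DAmP (red), swr1∆ (blue) and prp16DAmP (grey), with vertical ticks at group means. The 4 mms19 introns have every swr1∆ prp16DAmP array above 0 and every swr1∆ array below it, and med20 intron 1 has prp16DAmP arrays that overlap the swr1∆ prp16DAmP ones.

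The lower indices differed in which feature carried them. Intron 4 of mug137 was −0.57, −0.85 and −1.02 in the double mutant and −0.05, 0.92 and 1.05 in swr1∆ (−1.45 ± 0.23, adjusted p = 0.00933), with the intron feature at −0.95 and the exon feature at 0.50. Of its 6 introns 3 were called lower. Intron 2 of ppa3, a phosphatase subunit gene, fell by 1.05 ± 0.18 with an intron feature at −0.92, and intron 1 of ste24, the gene for a CAAX protease, by 0.92 ± 0.19 with an intron feature at −0.95 and an exon feature at −0.04. Intron 1 of med20, a Mediator subunit gene, was −0.38, −0.69 and −0.75 in the double mutant and 0.17, 0.31 and 0.54 in swr1∆ (−0.94 ± 0.14, adjusted p = 0.00731), and −0.58, −0.52 and −0.82 on the prp16DAmP arrays. The double mutant and prp16DAmP overlapped there, and both lay below all swr1∆ arrays. Intron 2 of SPCC1322.09 was −0.40, −0.45 and −0.42 in the double mutant and 0.20, 0.22 and 0.24 in swr1∆, compact in both groups (−0.64 ± 0.10, adjusted p = 0.00751), with an exon feature at 0.47 and an intron feature at −0.17 that did not pass. The index of spo5 intron 2 (−0.95) went with an exon feature at 0.74 and an intron feature at −0.21, of which the exon feature alone passed. The lower indices of spo5 intron 2, sec6 intron 3 (−0.94), mug137 intron 1 (−0.98), gcn2 intron 1 (−0.86), uso1 intron 1 (−0.86) and SPAC23D3.13c intron 2 (−0.84) were the remaining ones of the 10 lowest.

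The 2 introns of spp41, chosen after their values were seen, moved in opposite directions against a flat exon feature (−0.08 ± 0.07). Intron 1 was −0.39, −0.32 and −0.48 in the double mutant and −0.01, 0.19 and 0.07 in swr1∆ (−0.48 ± 0.10, adjusted p = 0.0247). Intron 2 was 0.40, 0.38 and 0.29 in the double mutant and −0.15, 0.06 and −0.16 in swr1∆ (0.44 ± 0.10, adjusted p = 0.0295). Neither intron had overlapping groups, and neither was among the 16 introns called in all 9 omissions. Of the 1821 introns with a flat exon feature, 19 were called higher and 28 lower. Of all 4821 introns, 291 (6.04%) were called higher and 188 (3.9%) lower. The limit on the exon part also limits the size of the index, so nothing is read from the lower share.

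Junction features, which report the joined exons, were called for 291 of 4651 (6.26%), 115 higher (2.47%) and 176 lower (3.78%). Omission of double-mutant array 1, 2 or 3 gave 38, 17 or 1480 calls, of swr1∆ array 1, 2 or 3 gave 546, 16 or 23, and of prp16DAmP array 1, 2 or 3 gave 143, 121 or 142. The junction of exons 2 and 3 of tfs1, the elongation factor TFIIS, was −0.91, −1.16 and −1.42 in the double mutant and −0.08, 0.04 and 0.72 in swr1∆ (−1.39 ± 0.19, 2.61-fold, adjusted p = 0.00725). The other 3 tfs1 junctions differed by −0.21 to 0.31 without being called, and the prp16DAmP arrays were low as well (−0.51, −0.82 and −0.81). In pmk1, the MAP kinase of cell integrity, junction 3-4 fell by 1.10 ± 0.21 (adjusted p = 0.0222) while junctions 1-2 and 2-3 stood at 0.06 and 0.02. That junction was 0.17 on double-mutant array 3, against −0.76 and −0.86 on arrays 1 and 2. Junctions of cut9, a subunit of the anaphase-promoting complex (1-2, −1.11 ± 0.19), and rhb1, the Rheb GTPase (2-3, −1.04 ± 0.17), were also lower. The ribosome assembly factor gene rlp24 had junction 2-3 at 0.25, 0.43 and 0.27 in the double mutant and −0.36, −0.30 and −0.58 in swr1∆ (0.73 ± 0.09, adjusted p = 0.00725), called in all 9 omissions. Junctions of the kinase gene mde3 (2-3, 1.10 ± 0.19), the exonuclease gene exo5 (3-4, 0.94 ± 0.20), the mitochondrial ribosomal protein gene nam9 (1-2, 0.77 ± 0.16) and aah2 (1-2, 0.73 ± 0.13) were the other 4 of the 5 highest.

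Junction minus exon was called for 586 of 4636 (12.6%), 347 higher (7.48%) and 239 lower (5.16%). Without double-mutant array 1, 2 or 3 the calls were 41, 18 or 1693, without swr1∆ array 1, 2 or 3 they were 761, 40 or 36, and without prp16DAmP array 1, 2 or 3 they were 357, 328 or 400. The highest values again lay in genes whose exon feature fell: arf1 (1.45 ± 0.28), ppx1 (1.26 ± 0.23), mms19 junction 4-5 (1.25 ± 0.19), pre8 junction 2-3 (1.24 ± 0.23) and pmm1, a phosphomannomutase gene (1.19 ± 0.21). In arf1 the junction itself was −0.08, −0.07 and 0.03 in the double mutant and −0.04, 0.04 and 0.01 in swr1∆. The arf1 junction thus showed no difference beyond the arrays' spread (−0.04 ± 0.06) beside the exon fall of 1.50. The U1 snRNP gene usp108 had junction 1-2 minus exon at −0.62, −1.04 and −0.90 in the double mutant and 0.14, 0.54 and 0.76 in swr1∆ (−1.33 ± 0.17, adjusted p = 0.00349), in which its junction fell by 0.87 and its exon feature rose by 0.47. The tfs1 junction 2-3 (−1.53 ± 0.19), the pmk1 junction 3-4 (−1.05 ± 0.23), the junction 3-4 of ypt1, a Rab GTPase gene (−0.98 ± 0.16), and the junction of sdj1, a J-domain protein gene (−0.94 ± 0.10), were the other lower ones. Of these, tfs1, usp108, sdj1 and mms19 4-5 were called in all 9 omissions.

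To ask whether prp16DAmP went with the same difference outside the swr1∆ background, the difference double mutant minus swr1∆ was set against prp16DAmP over wild type. The test of that difference shares the swr1∆ arrays with the results above and keeps any constant dye or wild-type offset. It called 0 of 5069 transcripts (1174 at an unadjusted p under 0.05, lowest adjusted p = 0.0594), 0 of 4821 indices (913), 0 of 4651 junctions (833) and 2 of 4636 values of junction minus exon (0.0431%, and 993 unadjusted), all by limma. The 2 were junction 1-2 of sdj1 and junction 1-2 of mic60, a gene of mitochondrial cristae. Without double-mutant array 3 the test called 1382 transcripts, 1113 indices, 838 junctions and 1208 values of junction minus exon, and in the other 8 single omissions at most 12 transcripts, 6 indices, 0 junctions and 10 values of junction minus exon. An absence of calls with all 9 arrays does not show that prp16DAmP acted alike in both backgrounds.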

How the data were processed

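Total RNA of 3 groups at 37 °C, with 3 arrays each, was read on 2-colour Agilent splicing arrays, mutant in Cy5 and wild type in Cy3 per the labels. The deposited table holds log ratios made by the authors, read here as log2, with 0 missing values. No source used here gives the base of the logarithm, the scanner settings, the background correction, the normalization or the array build. Signal over background was not used here, and the number of arrays limits the precision. The table's columns were mapped to samples by their titles, with 0 columns of no sample.

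Exon (5069), intron (4836) and junction (4651) features were parsed from the feature IDs. The splicing index (4821 introns) is intron minus exon, and junction minus exon covers 4636 junctions. Genes were named through RefSeq ASM294v3 (4806 by locus tag, 200 by synonym, 75 unmatched). limma 3.58.1 in R 4.3.3 (lmFit, eBayes) was fitted to the 9 arrays with 1 mean per group, two-sided, with Benjamini-Hochberg adjustment and a threshold of 0.05. Errors after ± are standard errors of that fit with n = 3 arrays per group. Differences are swr1∆ prp16DAmP minus swr1∆. Per-array medians were compared by exact permutation tests. The fit was tested on simulated data with independent noise, of equal spread on all 9 arrays for a given feature. No array that stands apart was simulated, so that test does not bear on how the counts depend on single arrays. Figures were drawn with Python and matplotlib.

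The text names the 10 largest called and non-overlapping differences in each direction for transcripts and for the index, 5 for each junction measure, up to 3 called members of each list in each direction, called interactions, and the targeted genes. Features called in all single omissions, spp41, and other named members were added after their values were seen. The members and lists were chosen with earlier results of these data known. The ribosomal protein and ribosome biogenesis lists were corrected, for names that belong to other genes, after a first run. Same-numbered arrays of the 2 groups deviated together with r of 0.208, 0.054 and 0.272. Differently numbered arrays did so with r from −0.243 to 0.135. The main fit did not pair the arrays by replicate number, and whether same-numbered arrays share a batch was not tested. Counts with a replicate block are given below.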

Additional observations from a re-analysis of the deposited data

Results flagged for a closer look

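The difference of the prp16DAmP effect between backgrounds (double mutant minus swr1∆, minus prp16DAmP over wild type) passed for 2 of 4636 values of junction minus exon, which is why both are listed here. For junction 1-2 of sdj1, a J-domain protein gene, it was −0.93 ± 0.13 (limma adjusted p = 0.0356). Junction minus exon of sdj1 was −0.32, −0.53 and −0.35 in the double mutant, 0.51, 0.46 and 0.66 in swr1∆, and −0.13, 0.04 and 0.06 in prp16DAmP. For junction 1-2 of mic60, a gene of mitochondrial cristae, it was −0.91 ± 0.13 (limma adjusted p = 0.0393), with −0.19, −0.27 and 0.07 in the double mutant, 0.56, 0.60 and 0.58 in swr1∆, and 0.22, 0.31 and 0.07 in prp16DAmP. The double mutant was the lowest of the 3 groups in sdj1 on every array. In mic60 array 3 of the double mutant (0.0703) lay only just below the lowest prp16DAmP array (0.0747). Both calls were lost in 7 of the 9 single omissions, with adjusted p up to 0.27 (limma), and with the replicate block neither passed.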

How the results depend on the processing

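Of 1886 repeats of named single features under the other settings, 1248 kept direction and side of the threshold, 629 kept direction but were no longer called, 5 became called and 4 reversed. These 4 reversals were ppx1 intron 1 (−0.0966 with junction features as the reference, −0.0600 with the intron feature alone), mms19 intron 3 (−0.0135 with junction features) and cdc48 intron 1 (−0.19 with the intron feature alone). Called features are given for transcripts, indices, junctions, junction minus exon and intron features in that order. They numbered 140, 40, 30, 141 and 3 over all 30 arrays and 0 (1418 at an unadjusted p under 0.05, limma), 39, 11, 30 and 0 (1117) over the 6 arrays alone. Quantile normalization gave 414, 163, 134, 334 and 5, equal spread gave 426, 167, 109, 285 and 4, and array weights, lowest for double-mutant array 3, gave 2974, 1988, 1900, 1992 and 1547. The index had 205 calls against junction features, 233 against exon and junction features and 137 as the intron feature alone. Leaving out introns whose value recurs on an array, which bears on intron measures alone, gave 467 called indices and 141 called intron features. With single arrays left out the counts ranged over 1 to 1979, 19 to 1608, 16 to 1480, 18 to 1693 and 0 to 1450.

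The labels link same-numbered arrays by their number alone. With the replicate block the counts were 660, 385, 202, 524 and 0 (1280 unadjusted), and the 2 calls of the difference between backgrounds fell to 0 (590 unadjusted). That difference, for transcripts, indices, junctions and junction minus exon, had 0 to 1382, 0 to 1113, 0 to 838 and 0 to 1208 calls with single arrays left out, and 2416, 1515, 1334 and 1556 with array weights. It had 17 transcript calls over all 30 arrays, 24, 1 and 14 (transcripts, indices, junction minus exon) with equal spread, and 4, 1 and 14 (transcripts, junctions, junction minus exon) with quantile normalization. The median index difference was −0.0024 over introns whose exon feature was flat.

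2 settings were chosen after seeing the data. Without both swr1∆ array 1 and double-mutant array 3 the counts were 2474, 1833, 1640, 1869 and 1443, and 1968, 1440, 1089 and 1485 for the difference between backgrounds. With the sign of double-mutant arrays 1 and 2 turned, 0 features of any kind were called (414, 424, 376, 364 and 458 unadjusted), and 0 for the difference between backgrounds. Of the 108 named calls, 13 had a difference of opposite sign under that setting. The cause of these differences between settings was not tested.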
